A study of Mus musculus with 24 samples.

Results

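A group of 10 genes of fibroblast growth factor (FGF) signalling was followed across fractions and vigilance states of mouse cerebral cortex: the ligands Fgf1 and Fgf2, the receptors Fgfr1, Fgfr2 and Fgfr3, the feedback inhibitors Spry1, Spry2, Spry4 and Spred1, and the transcription factor Etv5. They are 10 of 18193 genes measured, and 30 of the 34945 probe sets that the array annotation pairs with a single gene symbol. Each gene is given by its probe set with the highest mean over all 24 arrays, and the other probe sets are given where they bear on a result. They were fitted together with every other probe set of the array, and their differences are relative to the median probe set.

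All mice were adults heterozygous for the aldh1l1 - eGFP-L10a transgene, in which the Aldh1l1 promoter drives a tagged ribosomal protein in astrocytes. Cortex lysate was immunoprecipitated through the tag, so the bound fraction holds the RNA on astrocyte ribosomes. The unbound fraction holds what stayed in the supernatant, from neurons and other glia, and astrocyte markers were measured in it too, as given below. Each bound array holds 1 animal, with 6 animals in each of sleep, waking and sleep deprivation. Each unbound array holds a pool of 3 of these animals (1 to 3 or 4 to 6), which gives 2 pools a state. Sleeping mice were killed between 3 and 5 pm, in the light, at the end of a sleep bout of over 45 min and with at least 75% of the previous 6 to 7 h asleep. Waking mice were killed between 3 and 5 am, in the dark, after a wake bout of over 1 h and with at least 70% of the previous 6 to 7 h awake. Sleep-deprived mice had been awake for most of the dark phase and were then kept awake in the light for 4 h with unfamiliar objects. State and clock time therefore cannot be told apart between waking and the other groups. In a lysate, fewer cells of a type and less RNA per cell cannot be told apart either. Both fractions came from the same animals, so their samples are not independent.

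FGFs are secreted proteins that bind receptor tyrosine kinases together with heparan sulfate, and the receptor then signals through RAS and the ERK kinases. ERK signalling switches on its own inhibitors, the Sprouty (Spry) and Spred proteins, and ETS transcription factors such as Etv5, which is why these genes are commonly read as a record of pathway activity. Astrocytes are known to carry FGF receptors, Fgfr3 above all, and Fgf1 and Fgf2 are the ligands usually linked to them. Levels below are log2 array values, in which 1 unit is a doubling. Differences are log2 differences, each followed by its standard error (SE) from the model, and are given relative to the median gene of the same comparison, because the median itself was not 0. Adjusted p-values are from limma with Benjamini-Hochberg adjustment over all genes and refer to the differences before that median is taken off. A gene was called where its adjusted p was under 0.05.

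The labelled fractions matched their markers. Aldh1l1 was higher in the bound fraction by 3.72 ± 0.11 (SE; adjusted p 7.44e-18, limma), as were 12 of 12 astrocyte markers (median difference 2.82), while 9 of 10 neuron markers were lower. Rpl10a, which codes for the ribosomal protein that carries the tag, was higher by 1.17 ± 0.18. The mean level of the astrocyte markers lay between 12.40 and 12.62 in every bound array and between 9.14 and 9.73 in the unbound arrays. The median gene stood at 6.78 over the unbound arrays, so astrocyte RNA was reduced and not absent in the unbound fraction. The neuron markers stood between 9.64 and 10.27 in the bound arrays, so neuronal RNA was reduced and not absent there. Markers of meningeal cells and fibroblasts were also higher in the bound fraction (6 of 7), as were 3 of 7 markers of ependyma and choroid plexus. Of 7 endothelial markers 3 were higher and 1 lower, and of 6 oligodendrocyte precursor markers 2 were higher and 2 lower, which does not stand out either. Lower were 6 of 7 oligodendrocyte, 5 of 7 microglia and 4 of 7 pericyte and smooth muscle markers. The part of these cell types in the results below was not tested.

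All 10 genes were higher in the bound than in the unbound fraction. Over all genes 69.4% passed the test in this comparison, 42.2% of all genes being higher and 27.2% lower, so being called is common here, and the size of the difference says more than the call. The median of the 10 differences was 1.51. For 6 of the genes (Fgf1, Fgfr1, Fgfr2, Fgfr3, Spry1 and Spry2), every bound array was above every unbound array, which held for 17.2% of all genes. The ligands and receptors spanned 1.36 to 3.72, and the inhibitors and Etv5 spanned 0.45 to 1.66.

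**Figure D1:**
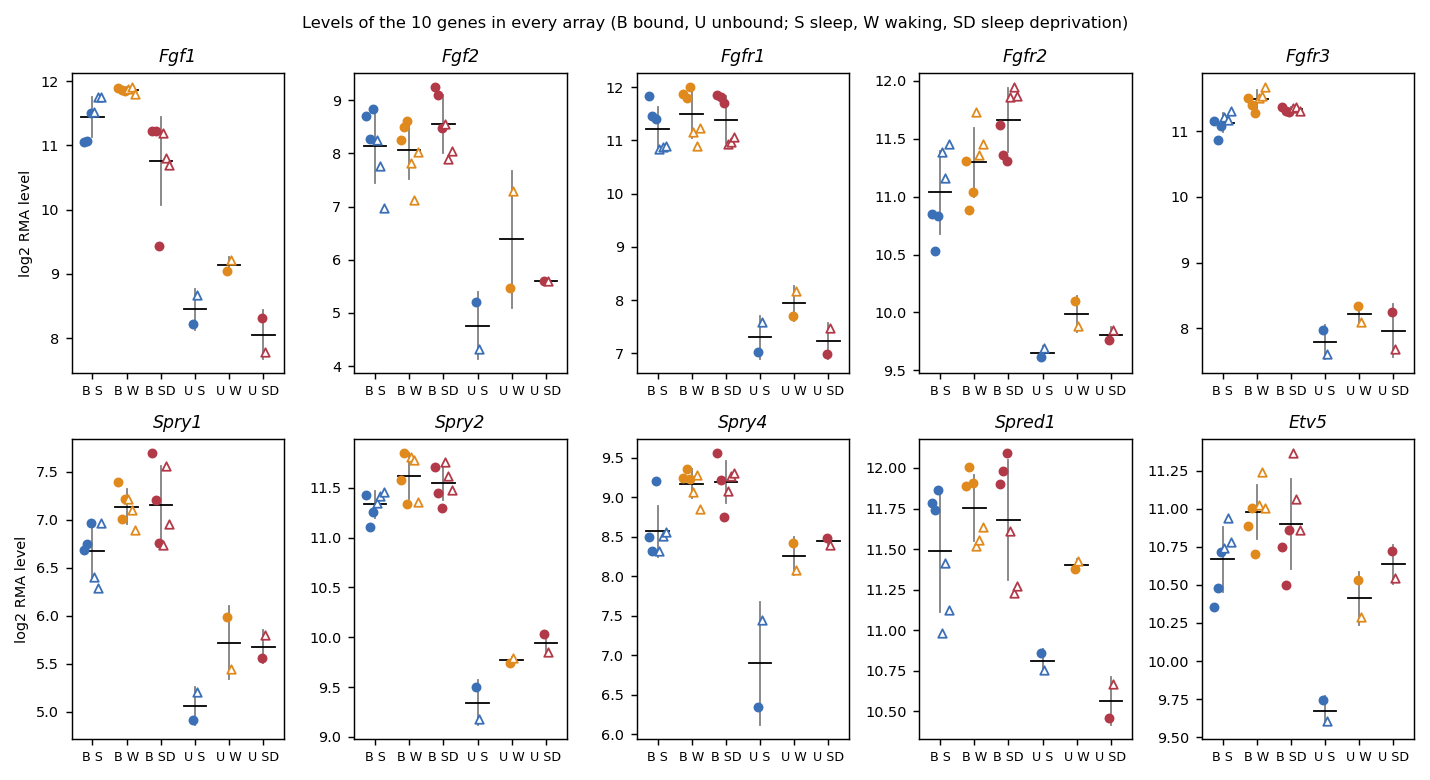
Log2 level (y axis) of each of the 10 genes in every array, by fraction and state (x axis). Filled circles are animals 1 to 3 or their pool, open triangles animals 4 to 6 or their pool, black lines group means and grey bars ± 1 SD (n = 6 bound arrays or 2 unbound pools). Fgfr1 and Fgfr3 show the widest gap between fractions, and Fgf1 falls in the sleep-deprived bound arrays, with one array at 9.44.

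Fgf1, the ligand that can bind every FGF receptor, stood between 9.44 and 11.91 in the 18 bound arrays (median 11.51) and between 7.78 and 9.22 in the 6 unbound pools (median 8.50). The fractions did not overlap, and the difference was 2.66 ± 0.19, or 6.30-fold. Fgf2, which astrocytes also make, ranged from 6.97 to 9.25 in the bound arrays (median 8.27) and from 4.31 to 7.29 in the pools (median 5.53). The second waking pool, at 7.29, lay within the bound range, and the other pools were at or below 5.60. The difference was 2.51 ± 0.28 (5.69-fold).

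Fgfr1 showed the largest difference of the 10 by the probe sets used, with bound levels from 10.84 to 12.01 (median 11.31) and unbound levels from 6.99 to 8.18 (median 7.52). It was 13.1-fold higher in the bound fraction (3.72 ± 0.19), the same size as Aldh1l1 itself. Fgfr3, a receptor often used to mark astrocytes, ranged only from 10.87 to 11.67 in the bound arrays (median 11.31) and stood between 7.60 and 8.34 in the pools (median 8.03). Its difference was 3.17 ± 0.09 (8.99-fold). Fgfr2, which oligodendrocytes express as well, stood at 10.53 to 11.95 in the bound arrays (median 11.36) and 9.61 to 10.10 in the pools (median 9.81), a difference of 1.36 ± 0.14 (2.56-fold). All 3 receptors were clear of overlap by these probe sets. Their other probe sets were called higher too, at 3.30 ± 0.12 and 2.24 ± 0.19 for Fgfr1, 3.21 ± 0.31 for Fgfr3 and 3.00 ± 0.21 and 0.71 ± 0.26 for Fgfr2. The Fgfr2 probe set at 0.71 was dim, with a mean of 4.05 over the 24 arrays, and the brighter ones stood at 1.36 and 3.00. Probe sets of Fgfr2 thus differed in size, also among the brighter ones, and no order of enrichment among the receptors is drawn. Of the other 2 Fgf1 probe sets, one was higher by 3.08 ± 0.27 and the dimmest was not called (-0.04 ± 0.13).

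The stretches of DNA just before the annotated starts of Fgfr2 and Fgfr3 are shown because these receptors passed the test in different state comparisons, described below. They are the 250 bases before the start in RefSeq for GRCm38.p6, on the strand of the gene, and for Fgfr3 before the first of its 2 listed starts. Capitals mark a GC box, GGGCGG or its reverse complement CCGCCC, the letters to which SP-family factors bind.
Fgfr2, chr7:130266809-130267058, minus strand: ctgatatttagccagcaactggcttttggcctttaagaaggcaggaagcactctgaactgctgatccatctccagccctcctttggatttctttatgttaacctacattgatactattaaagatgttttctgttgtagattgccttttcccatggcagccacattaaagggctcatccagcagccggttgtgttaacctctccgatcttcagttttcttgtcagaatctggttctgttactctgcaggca
Fgfr3, chr5:33721474-33721723, plus strand: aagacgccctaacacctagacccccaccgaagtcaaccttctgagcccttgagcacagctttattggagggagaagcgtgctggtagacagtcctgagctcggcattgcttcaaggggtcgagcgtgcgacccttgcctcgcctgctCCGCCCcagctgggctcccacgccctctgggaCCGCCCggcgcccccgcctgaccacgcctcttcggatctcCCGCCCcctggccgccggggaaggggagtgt
The Fgfr3 window held 3 GC boxes and was 66.8% G or C, and the Fgfr2 window held none and was 44.0% G or C. A GC box on either strand occurred in 32.7% of the 32851 RefSeq windows of this length. The other motifs searched on both strands were an ETS core, CCGGAAG (6.91% of windows), a cyclic AMP response element core, TGACG (17.8%), and an E-box, CACGTG (6.02%). None of these letters occurred in either window. Whether any of the letters bears on the state differences was not tested, and neither was a difference in response between these receptors.

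Spry2 was the inhibitor with the largest difference by these probe sets. It ranged from 11.11 to 11.85 in the bound arrays (median 11.45) and from 9.18 to 10.03 in the pools (median 9.77), 3.16-fold (1.66 ± 0.09). Spry1, at 6.29 to 7.70 in the bound arrays and 4.92 to 5.99 in the pools, was 2.54-fold higher (1.34 ± 0.14). Spry4 was 1.94-fold higher (0.96 ± 0.14), with 8.32 to 9.56 in the bound arrays against 6.34 to 8.49 in the pools. Both sleep-deprived pools and 1 waking pool of Spry4 lay within the bound range, and the sleep pools were below it. The other probe sets of these genes were also called higher, at 2.61 ± 0.37 for Spry2 and from 1.21 to 2.06 for Spry4.

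Spred1, a membrane-bound relative of the Sprouty proteins that blocks RAF activation, was the inhibitor with the smallest gap. Bound levels ran from 10.98 to 12.09 (median 11.69) and unbound levels from 10.46 to 11.43 (median 10.81), a difference of 0.55 ± 0.14 (adjusted p 0.00011, limma). Its 8 probe sets did not point one way, from -0.58 to 0.64 with 3 called as higher and 1 as lower. The one called lower, at -0.58, was the dimmest, with a mean of 2.05 over the 24 arrays, and the others ran from -0.13 to 0.64. With the mean of all its probe sets the difference was 0.05. Etv5, an ETS factor that FGF signalling induces, had a gap of 0.45 ± 0.11 (adjusted p 3.8e-05, limma), from 10.36 to 11.37 in the bound arrays and 9.61 to 10.72 in the pools. Its overlap came from waking and sleep-deprived pools, while both sleep pools were below every bound array. The other 2 Etv5 probe sets gave 0.62 ± 0.11 and 1.18 ± 0.13.

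Between waking and sleep, 2 of the 10 genes were called in the bound fraction, Fgfr3 and Spry4, both higher in waking. The background was 11.2% of all genes called (9.07% higher, 2.14% lower). After sleep deprivation 2 of the 10 were again called higher than in sleep, Fgfr2 and Spry4, against 14.3% of all genes (12.3% higher, 2.02% lower). Between sleep deprivation and waking the single called gene was Fgf1, lower after sleep deprivation, against 6.84% of all genes (4.17% higher, 2.67% lower). With 10 genes these counts do not set the group apart from the rest, and the results below are those of single genes. The comparisons against sleep share the same 6 sleep arrays. An unadjusted p under 0.05 (limma) was reached by 5, 5 and 1 of the 10 genes. The share over all genes is not given here for unadjusted p, so no excess is read from these counts.

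Fgf1 was the ligand that moved. The 6 waking arrays read 11.90, 11.87, 11.84, 11.88, 11.91 and 11.81, and the 6 sleep-deprived arrays 11.22, 11.22, 9.44, 11.19, 10.81 and 10.70. Every sleep-deprived array was below every waking array, which held for 1.84% of all genes, and the difference was -1.13 ± 0.24 (2.19-fold lower; adjusted p 0.0078, limma). The array at 9.44 stood apart from the other 5, and without it the difference was -0.87 ± 0.15 (adjusted p 0.0022, limma). The call was not reached in animals 1 to 3 alone, the set that holds this array (-1.27 ± 0.42, adjusted p 0.15, limma). The other 2 Fgf1 probe sets were lower after sleep deprivation too, by -0.78 ± 0.36 (adjusted p 0.25, limma) and by -0.60 ± 0.17 (adjusted p 0.047). The latter is the dimmest, with a mean of 3.42 over the 24 arrays, against 7.13 for the median gene of the bound arrays. It was not called between the fractions (-0.04 ± 0.13), so its call is not read as further evidence for Fgf1.

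The sleep arrays of Fgf1 read 11.06, 11.07, 11.51, 11.51, 11.76 and 11.75, with a mean between those of the other states. The arrays at 11.06 and 11.07 were below some of the sleep-deprived arrays. All waking arrays were above all sleep arrays, as for 6.01% of genes, but by a difference of 0.34 ± 0.24 that did not pass (adjusted p 0.32, limma), nor in any of 29 alternatives (lowest adjusted p 0.060). The SD was 0.69 in sleep deprivation and 0.04 in waking (n = 6 each). Sleep deprivation minus sleep was -0.79 ± 0.24 and missed the threshold (adjusted p 0.068, limma), also without the array at 9.44 (-0.53 ± 0.15, adjusted p 0.074). It was called with each array centred on its median (adjusted p 0.0485) and in animals 4 to 6 alone (-0.91 ± 0.15, adjusted p 0.0277). In the unbound pools the order of means was the same, with 9.04 and 9.22 in waking, 8.22 and 8.67 in sleep and 8.32 and 7.78 in sleep deprivation. There the difference between sleep deprivation and waking was -0.96 ± 0.25 (adjusted p 0.093, limma), and -0.22 ± 0.22 and 0.13 ± 0.21 with the other probe sets.

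Fgf2 did not pass in any state comparison. Its bound levels were wide within each state, from 6.97 to 8.83 in sleep, 7.13 to 8.61 in waking and 7.90 to 9.25 in sleep deprivation. Waking minus sleep was -0.16 ± 0.32 and sleep deprivation minus sleep 0.31 ± 0.32.

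**Figure D2:**
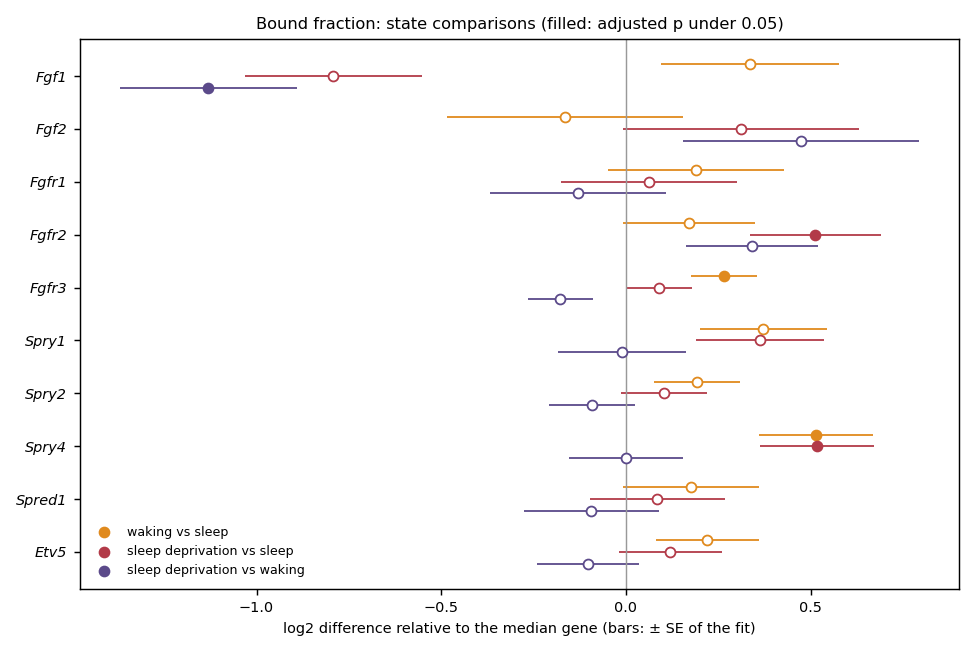
Log2 difference relative to the median gene (x axis) of each of the 10 genes (y axis) in the 3 state comparisons of the bound fraction, with bars of ± 1 SE and 6 arrays a state. Filled points have an adjusted p under 0.05: Fgfr3 and Spry4 in waking, Fgfr2 and Spry4 in sleep deprivation, and Fgf1 at -1.13 in sleep deprivation against waking.

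Fgfr3 was higher in waking than in sleep by a small amount. The sleep arrays read 11.16, 10.87, 11.07, 11.22, 11.17 and 11.30, and the waking arrays 11.51, 11.40, 11.28, 11.51, 11.54 and 11.67. In 5 of 6 waking arrays the level was above every sleep array, and the difference was 0.27 ± 0.09 (1.20-fold; adjusted p 0.013, limma). The sleep-deprived arrays lay together between 11.28 and 11.37, at 0.09 ± 0.09 from sleep (adjusted p 0.15). The waking call was lost with repeated quantile normalisation (adjusted p 0.0518), with centred arrays (0.0785), without dim genes (0.0743) with the mean of both probe sets (0.201) and in each animal set alone (0.111 and 0.117), while the difference stayed between 0.21 and 0.31 in every alternative. The other probe set differed by 0.36 ± 0.41.

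Fgfr2 rose after sleep deprivation. The sleep arrays read 10.85, 10.53 and 10.83 in animals 1 to 3 and 11.39, 11.16 and 11.46 in animals 4 to 6, and the sleep-deprived arrays 11.62, 11.36 and 11.31, then 11.86, 11.95 and 11.87. Within each set of animals every sleep-deprived array was above every sleep array, and across sets 4 of 6 were. The difference was 0.51 ± 0.18 (1.43-fold; adjusted p 0.024, limma), and 0.51 ± 0.09 (adjusted p 0.00037) with the replicate number as a block. Without the block the call was lost when any of 5 single arrays was left out, sleep 1, 2 or 3 or sleep deprivation 5 or 6 (adjusted p 0.0512 to 0.0572). It was also lost with quantile normalisation (0.0628), centred arrays (0.0777), without dim genes (0.0775) and in animals 4 to 6 alone (0.0535). The difference stayed between 0.41 and 0.60 over all 29 alternatives.

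The 2 other Fgfr2 probe sets differed by 0.49 ± 0.24 and 0.49 ± 0.34 between the same groups and were not called. Waking stood in between, from 10.89 to 11.73, at 0.17 ± 0.18 from sleep. With the block, sleep deprivation also exceeded waking (0.34 ± 0.09, adjusted p 0.0170), which was not called without it (adjusted p 0.28). Of the oligodendrocyte markers 0 of 7 were called between sleep deprivation and sleep, and their mean level ran from 8.22 to 8.83 in sleep and from 8.36 to 9.06 in sleep deprivation. The part of these cells in the Fgfr2 values was not tested.

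Fgfr1 was not called between states and differed between the animal sets. Animals 1 to 3 read 11.39 to 11.82 in sleep, 11.79 to 12.01 in waking and 11.70 to 11.86 in sleep deprivation, and animals 4 to 6 read 10.84 to 10.90, 10.90 to 11.23 and 10.93 to 11.06. Waking minus sleep was 0.19 ± 0.24 (adjusted p 0.56, limma), and 0.19 ± 0.08 (adjusted p 0.0381) with the replicate number as a block. The unbound pools of Fgfr1 overlapped between sleep and sleep deprivation and were highest in waking, at 7.70 and 8.18.

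Spry4 was the feedback inhibitor that passed in both comparisons against sleep. The sleep arrays read 8.50, 8.32, 9.20, 8.32, 8.51 and 8.56, the waking arrays 9.24, 9.36, 9.23, 9.07, 9.29 and 8.85, and the sleep-deprived arrays 9.56, 9.22, 8.76, 9.08, 9.26 and 9.30. Every waking and every sleep-deprived array was above 5 of the 6 sleep arrays, and the third sleep array, at 9.20, stood among them. Waking minus sleep was 0.52 ± 0.15 (1.43-fold; adjusted p 0.015, limma) and sleep deprivation minus sleep 0.52 ± 0.15 (1.43-fold; adjusted p 0.0096). Without the third sleep array both were 0.64 ± 0.13 (adjusted p 0.0018 and 0.0011).

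Of the 4 Spry4 probe sets, 3 were called in waking (0.51, 0.91 and 1.50) and the same 3 after sleep deprivation (0.51, 0.94 and 1.76), and the fourth read 0.54 ± 0.48 and 0.34 ± 0.48. The waking call was lost without dim genes (adjusted p 0.0757) and in each animal set alone (0.209 and 0.0606), and the call after sleep deprivation in animals 1 to 3 alone (0.269). Sleep deprivation minus waking was -0.0003 ± 0.15 (adjusted p 0.98).

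**Figure D3:**
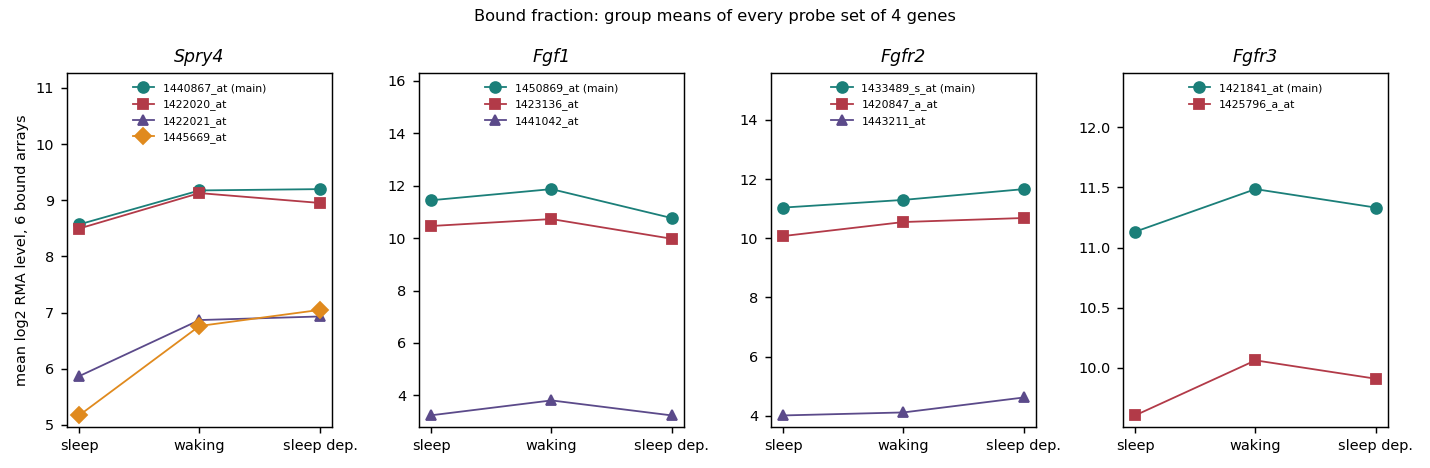
Mean log2 level (y axis) over the 6 bound arrays of each state (x axis) for every probe set of Spry4, Fgf1, Fgfr2 and Fgfr3, each gene on its own scale. One line is 1 probe set, and "main" marks the one used elsewhere. All 4 Spry4 lines are higher in waking and sleep deprivation than in sleep, in the dimmest from 5.17 in sleep to 7.05 in sleep deprivation and in the second brightest from 8.49 to 8.95.

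Spry1 and Spry2, the other Sprouty genes, were not called. Spry1 ranged from 6.29 to 6.96 in sleep, 6.89 to 7.39 in waking and 6.74 to 7.70 in sleep deprivation, at 0.37 ± 0.17 (adjusted p 0.10, limma) and 0.36 ± 0.17 (adjusted p 0.078) from sleep. The latter was called without sleep-deprived array 3 (adjusted p 0.0466) or 4 (0.0421). Spry2 ranged from 11.11 to 11.46, 11.34 to 11.85 and 11.29 to 11.76, at 0.19 ± 0.12 (adjusted p 0.14) and 0.10 ± 0.12 (adjusted p 0.27). In both genes the groups overlapped.

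Spred1 differed from sleep by 0.18 ± 0.18 in waking and 0.09 ± 0.18 after sleep deprivation, with adjusted p-values of 0.44 and 0.58 (limma). Like Fgfr1, its bound levels followed the animal set, 11.74 to 11.86 against 10.98 to 11.41 in sleep. Etv5 read 10.36 to 10.94 in sleep, 10.71 to 11.24 in waking and 10.50 to 11.37 after sleep deprivation, at 0.22 ± 0.14 (adjusted p 0.18) and 0.12 ± 0.14 (adjusted p 0.32). With the mean of its 3 probe sets the waking difference of Etv5 was called (0.29 ± 0.10, adjusted p 0.0101).

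In the unbound pools none of the 10 genes was called by its main probe set, with limma's test, between waking and sleep, between sleep deprivation and sleep, or between sleep deprivation and waking. The background there was 6.32%, 1.87% and 0.759% of all genes. An unadjusted p under 0.05 (limma) was reached by 6, 4 and 3 of the 10, again without a share over all genes to set beside it. Both waking pools were above both sleep pools for all 10 genes, which held for 55.5% of all genes, and the median gene was itself 0.30 higher in waking. The astrocyte markers were higher in the same pools, with a mean level of 9.14 to 9.19 in sleep and 9.68 to 9.73 in waking, a median relative difference of 0.20 and 2 of 12 called. Their part in the values of the 10 genes was not tested.

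Spry4 and Etv5 had the largest unbound differences after sleep deprivation. Spry4 read 6.34 and 7.45 in the sleep pools, 8.42 and 8.08 in the waking pools and 8.49 and 8.39 in the sleep-deprived pools. Its differences from sleep were 1.06 ± 0.36 (adjusted p 0.070, limma) and 1.37 ± 0.36 (adjusted p 0.078). Etv5 read 9.74 and 9.61, then 10.54 and 10.29, then 10.72 and 10.54, with differences of 0.44 ± 0.17 (adjusted p 0.057) and 0.78 ± 0.17 (adjusted p 0.055). Sleep-deprived pools of both genes were above both sleep pools, as for 42.9% of all genes. Both genes were called in both comparisons when the spread was taken from all 24 arrays (limma, Spry4 0.0078 and 0.0041, Etv5 0.0482 and 0.0152). That setting adds the spread of the single-animal bound arrays. It also raised the calls over all genes, for sleep deprivation from 259 higher and 82 lower to 734 and 265. Neither gene was called in either comparison with the replicate block, repeated quantile normalisation, centred arrays or array weights.

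Other probe sets did pass in these pools. The other 3 of Spry4 were called in waking (1.21, 2.18 and 2.04, adjusted p 0.0311 to 0.0326, limma) and after sleep deprivation (1.39, 1.74 and 2.02, adjusted p 0.0344 to 0.0401). In waking 1 of 3 Fgfr1 probe sets was called (1.20 ± 0.21, adjusted p 0.0323) and 1 of 8 of Spred1 (0.66 ± 0.16, adjusted p 0.0399). After sleep deprivation 1 of 2 Spry2 probe sets was (1.34 ± 0.26, adjusted p 0.0464). The other 2 Etv5 probe sets were positive in both comparisons and not called.

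Spred1, by its main probe set, read 10.86 and 10.76 in sleep, 11.38 and 11.43 in waking and 10.46 and 10.67 after sleep deprivation, and sleep deprivation minus waking was -0.72 ± 0.16 (adjusted p 0.069, limma). Its probe sets disagreed, with 4 of 8 lower and 4 higher in that comparison, and the mean of probe sets gave -0.04 ± 0.14. Against sleep, 6 of 8 were higher after sleep deprivation, and the difference was -0.42 ± 0.16 by the main probe set and 0.24 ± 0.14 by the mean of all. No direction after sleep deprivation is drawn for Spred1. Fgf2 had the widest gap between waking and sleep, 1.32 ± 0.59 (adjusted p 0.12), which rested on pools at 5.47 and 7.29 in waking against 5.20 and 4.31 in sleep.

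Whether a state difference was unequal between the fractions was tested directly, as the bound difference minus the unbound one. By their main probe sets none of the 10 genes was called for waking or for sleep deprivation with limma, against 5.6% and 4.89% of all genes. In each, 2 genes had an unadjusted p under 0.05, a count whose share over all genes is not given here. For Spry4 the values were -0.53 ± 0.35 (adjusted p 0.26) and -0.85 ± 0.35 (adjusted p 0.17), and for Etv5 -0.21 ± 0.26 and -0.66 ± 0.26 (adjusted p 0.43 and 0.13). Without the second sleep pool of the unbound fraction, Spry4 gave -1.11 and -1.43. That fit leaves 1 sleep pool, at 6.34, so no call is read from it. Over 35 alternatives the Spry4 value ran from -1.26 to 0.18 for waking and from -1.56 to -0.15 for sleep deprivation. Etv5 was called for sleep deprivation in 1 of 35 alternatives, the one with array weights (-0.67 ± 0.22, adjusted p 0.0443, limma). Another Fgfr1 probe set was called for waking (-0.92 ± 0.30, adjusted p 0.0264). The rise of Fgfr2 after sleep deprivation in the bound arrays was 0.54 ± 0.33 larger than in the pools (adjusted p 0.56), so it was not shown to differ between fractions.

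The rest of the pathway was read from lists of 93 genes, of which 85 were measured. They cover the other FGF ligands, intracellular FGF homologues, other receptors and co-receptors, adaptors, the RAS-ERK cascade, other feedback and ERK target genes, and the heparan sulfate machinery. In the bound fraction 32 of the 85 were higher and 30 lower than in the unbound fraction, with 23 not called, or 37.6% and 35.3% against 42.2% and 27.2% of all genes. The median difference was 0.07 over 16 other ligands, -0.11 over 12 adaptors, -0.31 over 9 cascade genes, -0.47 over 14 other feedback genes and 0.51 over 23 heparan sulfate genes.

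Genes on the bound side included Fgfrl1, a receptor without a kinase domain (3.04 ± 0.18), Etv4, the close relative of Etv5 (3.17 ± 0.22), the heparan sulfate proteoglycans Sdc4 (3.34 ± 0.07) and Gpc5 (2.89 ± 0.19), and the adaptors Shc1 (2.03 ± 0.29) and Gab1 (1.81 ± 0.11). Genes on the unbound side included the kinase Braf (-2.14 ± 0.15), the homologous factors Fgf13 and Fgf14 (-1.90 ± 0.26 and -1.95 ± 0.28), which act inside neurons on sodium channels, the ligand Fgf5 (-2.34 ± 0.36) and the immediate early gene Egr1 (-3.28 ± 0.24). All these passed the test.

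**Figure D4:**
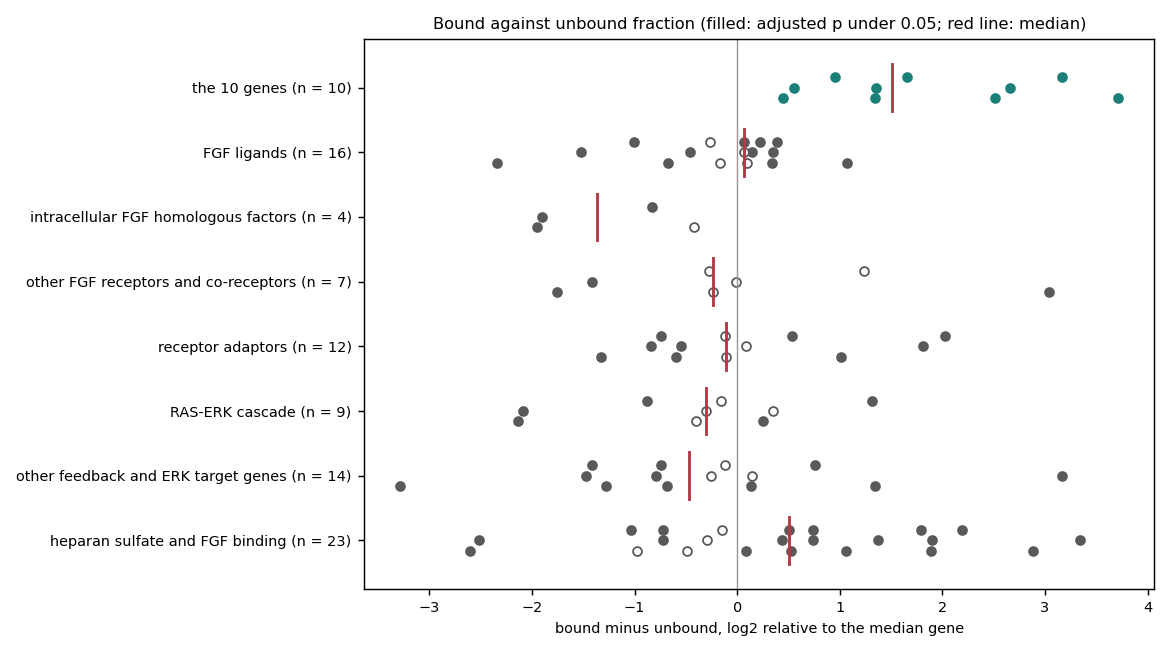
Bound minus unbound log2 difference relative to the median gene (x axis) for the 10 genes and for 7 lists of other pathway genes (y axis). Each point is 1 gene, filled where adjusted p is under 0.05, and red lines are medians. The 10 genes all lie above 0 with a median of 1.51, while the other lists spread to both sides, with medians from -1.37 to 0.51.

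In bound RNA, waking against sleep had 7 of the 85 pathway genes higher and 0 lower, and sleep deprivation against sleep had 12 higher and 1 lower. These are 8.24% and 14.1% higher, against 9.07% and 12.3% of all genes, so the lists as a whole were near the background. Of the 14 other feedback and ERK target genes, 1 was called higher in waking and 3 after sleep deprivation, with 0 lower and 13 and 11 not called. Egr1, a gene that ERK signalling induces, was higher in both comparisons (0.95 ± 0.32 and 0.98 ± 0.32). As given above, Egr1 was far lower in the bound than in the unbound fraction, and neuronal RNA was present in the bound arrays. The part of that RNA in the Egr1 values was not tested. Dusp6 and Dusp5, phosphatases that switch ERK off and are themselves ERK targets, were higher after sleep deprivation (0.65 ± 0.16, adjusted p 0.0027, and 0.66 ± 0.22, adjusted p 0.023, limma). Sdc4, a co-receptor for FGF2, was higher in both (0.24 ± 0.08 and 0.18 ± 0.08), as was the ligand Fgf22 (0.51 ± 0.12 and 0.62 ± 0.12). Flrt1, a membrane protein that binds FGF receptors, was higher in waking (0.66 ± 0.15) and lower in sleep deprivation than in waking (-0.67 ± 0.15), the same pair of directions as Fgf1, which passed in the second only.

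None of the 12 adaptors was called in these 3 comparisons of the bound fraction with limma, and of the 9 cascade genes only Ksr1, a scaffold for RAF and MEK, was called (0.56 ± 0.21 after sleep deprivation). Of the other ligands, Fgf10, Fgf22, Fgf4 and Fgf17 were higher in waking (0.81, 0.51, 0.50 and 0.33), and Fgf15, Fgf22 and Fgf3 were among 5 higher and Fgf23 the 1 lower after sleep deprivation (0.81, 0.62, 0.31 and -0.83). The mean bound levels of these ligands ran from 3.71 to 5.78, below the median gene at 7.13, so they are values near the dim end of the array.

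In the unbound pools 9 of the 85 were higher and 0 lower in waking than in sleep, among them Dusp4 (1.46 ± 0.23), Dusp5 (1.06 ± 0.16) and Egr1 (0.55 ± 0.18), and 3 were higher and 1 lower after sleep deprivation, with Dusp5 at 1.80 ± 0.16 and Dusp4 at 1.32 ± 0.23. Of all genes 6.32% and 1.87% were called in these comparisons, in either direction, and with centred arrays 0 genes were called between waking and sleep. Spry4 and Etv5, which were not called there, had values of the same sign in both comparisons. All 10 genes were above the median gene in waking, and 5 of the 10 after sleep deprivation, so no agreement is read from the sign.

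Animal set was the other axis along which the 10 genes varied. Over the bound arrays, animals 4 to 6 minus animals 1 to 3, averaged over the 3 states, was -0.84 for Fgf2, -0.76 for Fgfr1 and -0.54 for Spred1, and 0.50 for Fgfr2, 0.31 for Etv5 and 0.24 for Fgf1. The other 4 genes were within 0.17 of 0. The median over all genes was 0.01 and the median size 0.26. The labels do not say what separates the sets, beyond the pooling of the unbound fraction by the same numbers. The sign was the same in sleep, waking and sleep deprivation for every one of the 10 genes but Fgf1 and Spry4. How many of all genes keep their sign is not given here.

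**Figure D5:**
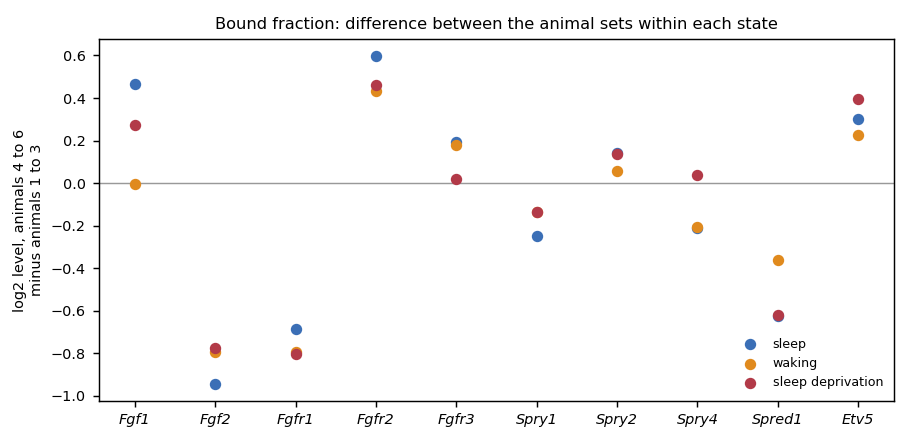
Log2 level in animals 4 to 6 minus animals 1 to 3 (y axis) for each of the 10 genes (x axis), with 1 point for each state of the bound fraction, from 3 arrays against 3. Fgfr1 and Fgf2 lie near -0.8 in all states and Fgfr2 between 0.43 and 0.60.

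With state and animal set removed, the 10 genes did not vary as one group over the 18 bound arrays. The highest correlation between members was Fgf1 with Spry4 (r = 0.62), followed by Fgfr2 with Spry1 (0.58), Spry1 with Spry4 (0.58) and Fgfr2 with Fgfr3 (0.53), and the lowest was Fgfr1 with Etv5 (-0.67). Without the sleep-deprived array in which Fgf1 stood apart, Fgf1 with Spry4 was 0.31. These are descriptions over 18 arrays (14 residual degrees of freedom) that share processing and array quality, chosen as the extremes of all pairs. Fgf1 and Spry4 lie near each other in the mouse genome, with 2 protein-coding genes between them in RefSeq. Fgf2 and Spry1 also have 2 between them, and their r was -0.20 (-0.49 without that array).

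The gene whose residual pattern was most like that of Fgf1 was Rnf14, a ubiquitin ligase gene with 5 protein-coding genes between it and Fgf1 (r = 0.96, and 0.90 without that array), followed by Trip6 (0.91, and 0.69 without it), among 8833 genes compared. For Fgfr3 they were Rac1 (0.89) and Glul (0.87), which codes for the glutamine synthetase of astrocytes. For Fgfr2 they were Stt3b (0.81) and Il33 (0.79), and for Fgfr1 Svs5 (0.81) and Cbs (0.77). Fgf2 was most like Tnik (0.90) and Serpinh1 (0.80). For the inhibitors they were Rbm4b and Pole3 (Spry1, 0.85 and 0.77), Foxn2 and Ppp1cc (Spry2, 0.90 and 0.83), Cybrd1 and Ktn1 (Spry4, 0.81 and 0.81) and Cacng3 and Ctnnb1 (Spred1, 0.84 and 0.82). Etv5 was most like Tigd2 (0.80) and Acaa1a (0.79). These r values are the highest of all genes compared, over 18 arrays, and say nothing of a shared role.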

How the data were processed

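RNA from 24 samples was hybridised to Affymetrix mouse genome arrays. The values were deposited by the authors as log2 values from RMA, which corrects background, quantile-normalises and summarises probes, per the submitters' processing notes. The version is not given in the sources used here. Array medians lay between 5.51 and 5.88. Exactly equal values occurred in every pair of arrays of 1 group (52 to 240 of the 45101 probe sets in a bound pair, 1707 to 2248 in an unbound pair) and in 0 of 228 pairs from different groups, as if groups had been normalised separately. The sources used here do not say so, and such a run cannot be told apart from state and fraction.

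After 64 control probe sets were left out, 34945 had 1 gene symbol, 932 several and 9160 none. Of the first, 34741 had an Entrez ID in RefSeq, and they gave 18193 genes. A gene with several probe sets was given by the one whose mean over 24 arrays was highest. Linear models were fitted in limma 3.58.1 (R 4.3.3) over the 18 bound arrays, the 6 unbound arrays, or all 24 in 6 groups, with Benjamini-Hochberg adjustment over all genes and a threshold of 0.05, and were tested on simulated data. Log2 differences are given minus the median over all genes, which was 0.09, 0.11 and 0.02 in the bound state comparisons, 0.30, 0.18 and -0.12 in the unbound ones, 0.16 between fractions, and -0.22 and -0.06 in the differences between fractions.

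The models had no block. Residuals of bound arrays with the same replicate number in different states correlated in all 18 pairs (0.27 to 0.53), a pairing that comes from the data and not from the labels. The fit with the number as a block is given beside results whose call it changes. The 6 unbound pairs gave 0.00 to 0.03. The labels call the bound samples separate animals, and unbound samples are pools of 3.

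The members and the pathway and marker lists were chosen with earlier results of these data known. Genes named outside the 10 are the up to 4 called members of each list with the largest difference, Aldh1l1, and the 2 genes most like each member by Pearson r, among named genes at or above the median level. Alternatives were the replicate block, leaving out genes below the median level, the mean of probe sets, every probe set, repeated quantile normalisation, centring, an intensity trend with robust fitting, array weights, the spread of all arrays, each animal set alone, bound arrays averaged to pools, and each array left out. Promoter letters are RefSeq's for GRCm38.p6. Figures were drawn with matplotlib 3.10.9.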

Additional observations from a re-analysis of the deposited data

Results flagged for a closer look

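Among 30 sets of 6 bound arrays (10 genes in 3 states), 2 held an array whose gap to its nearest neighbour, divided by the range of the set, was above Dixon's critical value for 6 samples. Chance alone does this in about 1 set in 20. Fgf1 in the third sleep-deprived array was the lowest of its group at 9.44, with the next at 10.70 and the highest at 11.22 (gap over range 0.705). Without it Fgf1 was still lower after sleep deprivation than in waking (-0.87 ± 0.15, adjusted p 0.0022, limma). Spry4 in the third sleep array was the highest of its group at 9.20, with the next at 8.56 and the lowest at 8.32 (gap over range 0.733). Without it Spry4 was 0.64 ± 0.13 higher both in waking and after sleep deprivation.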

How the results depend on the processing

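Of 2358 values recomputed for 90 results (10 genes in 9 comparisons), 2311 kept their side of the threshold, 20 calls were lost, 27 were gained and 0 called values turned in direction, while 87 uncalled values changed sign. All 10 genes were called as higher in the bound fraction under every alternative, or all 9 left where dim genes were taken out. The 2 calls of waking against sleep became 0 without dim genes (9 genes tested), 1 with quantile normalisation, 1 with centred arrays, and 0 in animals 1 to 3 and 0 in animals 4 to 6 alone. The 2 calls of sleep deprivation against sleep became 1 without dim genes, 1 with quantile normalisation and 1 in animals 1 to 3, and ranged from 1 to 3 with single arrays left out. The 1 call of sleep deprivation against waking became 2 with the replicate block (Fgfr2 added) and 0 in animals 1 to 3. The replicate block also added Fgfr1 in waking (adjusted p 0.0381) and changed no other call of these genes. In the unbound pools, where 0 were called, waking gave 1 without dim genes (8 tested), 2 with the mean of probe sets, 3 with trend and robust fitting and 2 with the spread of all arrays. Sleep deprivation against sleep gave 2, 2 and 2 with the last 3 of these, and against waking 2 with trend and robust fitting. The differences between fractions gave 1 with array weights (Etv5). Fits without 1 unbound pool leave 1 pool in that group, and their counts are not given.

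The split of calls over all genes moved with scaling. Waking against sleep had 1650 higher and 389 lower, and 775 and 622 with quantile normalisation. Sleep deprivation against sleep had 2230 and 367, and 988 and 753. Bound against unbound had 7672 and 4955, and 5049 and 7662 with centred arrays. Leaving out dim genes left 72 and 14 in waking and 193 and 23 after sleep deprivation, with 9097 genes tested, and the replicate block gave 2399 and 665, and 3227 and 654. In the unbound pools waking against sleep had 1039 and 110, and 0 and 0 with centred arrays. The number of arrays, 6 or 2 a group, limits the precision.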
